A study of Auxenochlorella pyrenoidosa with 12 samples.

Results

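The 150 contigs described here are transcripts of the green alga Chlorella pyrenoidosa (also Auxenochlorella pyrenoidosa) that were present from the start and reached their highest mean level at the last sampling of a culture exposed to potassium peroxymonosulfate (PMS). They were chosen by measured values out of 30814 contigs. A contig was eligible when each of the 4 control and day 0 libraries held at least 1 FPKM (fragment counts scaled to contig length and library size), which 12504 contigs met. On the scale of log2(FPKM + 1), the day 0 mean had to lie within 1 of the control mean (11713 left), the day 3 mean no more than 1 below day 0 (6378 left), and the day 6 mean less than 0.5 above day 0 (4195 left). From these, the 150 with the largest day 12 gain were taken. The gain is the day 12 mean minus the highest of the 5 other group means. The rule thus uses all 6 group means, and the levels, gains and steps between groups below are a description without a test.

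The control group received no PMS, and its sampling day is not stated without ambiguity. The 5 treated groups received 8.49 mg/L PMS, or 0.5 of the median effective concentration (EC50), and were sampled every 3 days from day 0 to day 12. Each group had 2 RNA-seq libraries of whole cells, the labels name no strain and do not say whether both came from separate cultures, and no control of a later day was analysed here. Exposure and age of the culture therefore cannot be told apart on day 12. Total FPKM per library lay between 487140 and 603105, and the depth in reads is unknown.

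Peroxymonosulfate is a strong oxidant that is used for disinfection and for advanced oxidation of water, and it breaks down in water over time. Unicellular algae answer oxidants with scavenging enzymes, protein repair and changes in photosynthesis. A closed algal culture also moves from fast growth to a stationary phase in which nutrients and light become limiting, and many transcripts change with that transition alone. The deposited table names contigs by assembly number and pairs none with a gene, so no function is given to any contig here. A library of whole cells also cannot separate more RNA per cell from more cells that use a gene.

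Through day 6 the median level of the 150 contigs stayed near its start, and it rose over the last 2 intervals. Single contigs moved more, and in 34 the group means from control to day 6 spanned over 1 on the log2(FPKM + 1) scale. Given for library 1 and then library 2, as throughout, their median FPKM was 5.16 and 4.70 in the control, 5.85 and 4.65 for day 0, 4.88 and 5.36 for day 3, and 5.34 and 5.12 for day 6. It then reached 7.01 and 8.71 at day 9 and 12.5 and 11.0 at day 12. The day 12 medians lay above those of all 10 other libraries, and the day 9 medians lay above those of the 8 libraries before them. The summed FPKM of the 150 contigs made up 0.272% to 0.360% of a library up to day 6, then 0.420% and 0.591% at day 9 and 0.807% and 0.709% on day 12. Contigs were tested when they averaged 1 FPKM or more, and over these 17653 the median FPKM was 4.86 and 4.67 in the control, against 4.54 and 4.34 at day 12.

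**Figure D1:**
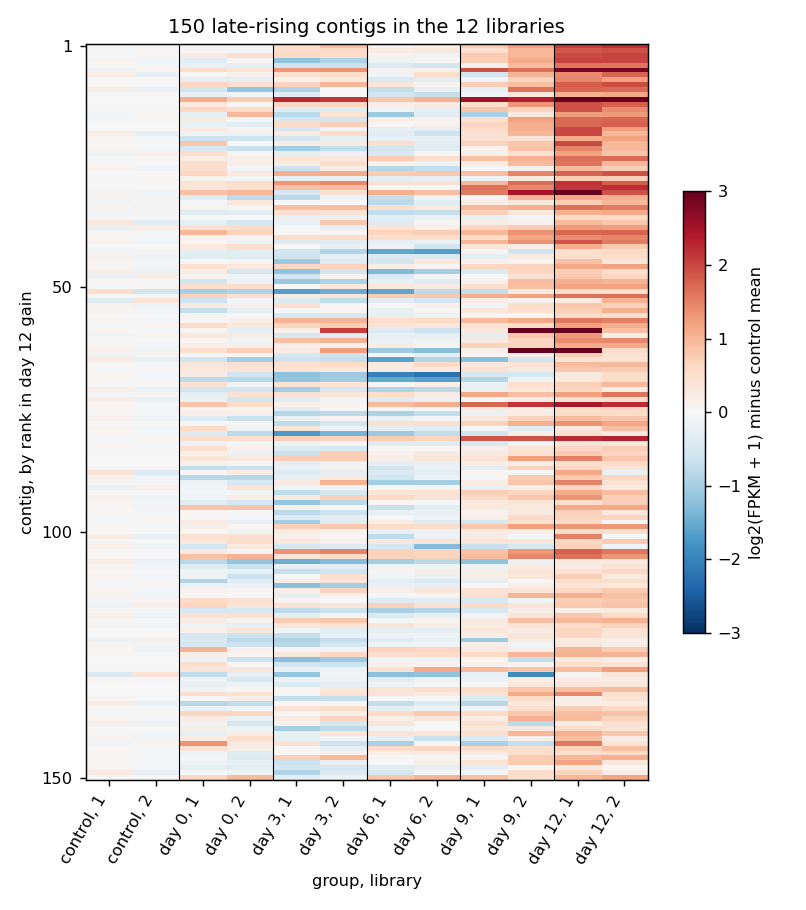
Level of each of the 150 contigs (rows, ordered by rank in day 12 gain) in the 12 libraries (columns, group and library number), as log2(FPKM + 1) minus the contig's control mean; colours end at -3 and 3. Day 12 lies above the control mean for 150 contigs in library 1 and for 147 in library 2, day 9 library 2 is redder than day 9 library 1 for 113 of the 150 contigs, and the columns up to day 6 mix red and blue.

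Part of the late rise was in place by day 9. The median step on the log2(FPKM + 1) scale was 0.04 from control to day 0, -0.16 from day 0 to day 3 and -0.03 from day 3 to day 6. It was 0.43 from day 6 to day 9 and 0.52 from day 9 to day 12, or 1.34-fold and 1.43-fold on that scale. The 2 late steps depended on the day 9 library, with medians of 0.28 and 0.70 without day 9 library 2, and of 0.64 and 0.36 without day 9 library 1. The day 6 to day 9 step was upward in 139 of the 150 contigs, in 52.6% of all tested contigs and in 40.5% of the other eligible ones. It was the larger of the 2 late steps in 65 of the 150. The same 2 steps had medians of 0.03 and 0.01 over all tested contigs, and of -0.08 and -0.02 over the 4045 other eligible contigs. Measured as the share of the rise from day 6 to day 12, 65 contigs had completed more than 0.5 of it by day 9, 55 between 0.25 and 0.5 and 30 less than 0.25. In 11 of those 30 the level was lower on day 9 than on day 6.

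Day 12 gains were small for most of the 150 contigs. The median gain was 0.38 on the log2(FPKM + 1) scale, 1.31-fold, with a range from 0.17 (1.13-fold) to 1.15 (2.21-fold). A gain of at least 1 was reached by 10 contigs and of at least 0.5 by 53, while 39 gained less than 0.25. The other eligible contigs had a median of -0.79, and 335 of the 4195 eligible contigs had any gain above 0. The limit of the list fell on a continuous slope. The last 5 contigs taken had gains from 0.178 to 0.174, and the first 5 left out from 0.173 to 0.167. Against the control, the mean FPKM at day 12 was at least 2-fold higher in 79 contigs and at least 4-fold higher in 21, with a median of 2.05-fold and a range of 1.14-fold to 18.5-fold.

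**Figure D2:**
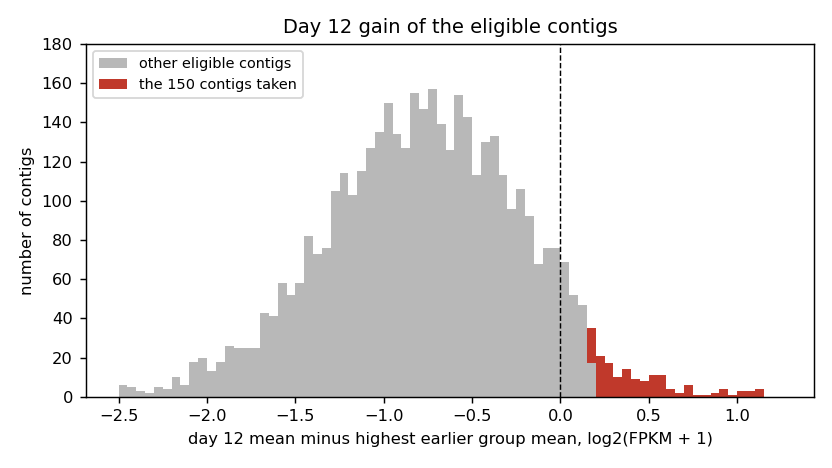
Number of eligible contigs (vertical axis) by day 12 gain on the log2(FPKM + 1) scale (horizontal axis), in bins 0.05 wide; the few contigs below -2.5 are not drawn. The 150 contigs taken (red) form the right tail of a single distribution whose other members (grey) have a median of -0.79, with no gap at the limit of 0.17.

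The spread between the 2 libraries of a group was of the same order as many of these gains. In 105 of the 150 contigs (70.0%) both day 12 libraries lay above all 10 other libraries, against 11.9% of the tested contigs and 30 of the 4045 other eligible ones. The rule chose for this difference, so the comparison of shares is not a result. The gain exceeded the contig's own difference between the 2 day 12 libraries in 114 contigs, and exceeded its largest difference within any of the 6 pairs in 54. The highest of the 12 libraries was a day 12 library for 142 contigs, day 9 library 2 for 5 and another library for 3. These counts, and those of the gain against differences within pairs, were not made for other contigs. The rule ranked on the gain, so none of them measures how well a rise holds.

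The largest gain belonged to TRINITY_DN4800_c0_g1_i1_2. It stood at 3.92 and 3.38 FPKM in the control, 3.98 and 3.22 at day 0, 5.72 and 7.74 at day 3, 4.03 and 4.24 at day 6, 6.93 and 9.66 at day 9, and 18.4 and 20.3 FPKM at day 12. The day 12 pair did not overlap with any other pair. In FPKM as deposited, a smaller rise on day 3 had gone by day 6. Its mean rose from 3.65 ± 0.388 FPKM in the control to 19.4 ± 1.32 FPKM at day 12 (SD, n = 2), 5.30-fold, and the gain over day 9 was 1.15 on the log2(FPKM + 1) scale.

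The contig of rank 2 followed the same course at a higher level. It had 8.15 and 7.95 FPKM in the control, 8.52 and 7.76 at day 0, 12.1 and 12.4 at day 3, 9.58 and 10.2 at day 6, 11.8 and 17.1 at day 9, and 32.0 and 33.3 FPKM at day 12. Day 3 and day 9 overlapped, and both lay far below day 12. The contig of rank 3 had 9.50 and 10.3 FPKM in the control, 11.9 and 14.2 at day 0, 15.6 and 14.9 at day 3, 10.7 and 9.15 at day 6, 17.7 and 20.7 at day 9, and 41.8 and 43.8 FPKM at day 12. Its day 9 libraries were already above all earlier ones.

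In FPKM as deposited, ranks 4 and 5 dipped before they rose. Rank 4 had 14.1 and 12.3 FPKM in the control, 10.3 and 13.7 at day 0, 5.17 and 6.41 at day 3, 12.2 and 13.5 at day 6, 22.7 and 29.4 at day 9, and 56.5 and 57.1 FPKM at day 12. Rank 5 had 20.8 and 18.9 FPKM in the control, 17.0 and 16.1 at day 0, 12.6 and 12.2 at day 3, 14.6 and 13.2 at day 6, 21.3 and 39.5 at day 9, and 62.8 and 62.1 FPKM at day 12. In both, the day 12 libraries were nearly equal and the lowest pair was that of day 3. The step of rank 5 from day 0 to day 3 was -0.39 on the log2(FPKM + 1) scale. Rescaling of the libraries, described below, raised this step by a median of 0.41 over all tested contigs, so the dip of rank 5 depends on the scaling. The day 9 libraries of rank 5 differed from each other by more than any other pair of that contig.

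Rank 6 showed 2 separate rises and was also the fourth most abundant of the 150 contigs on day 12. It had 17.0 and 20.1 FPKM in the control, 27.7 and 23.9 at day 0, 46.9 and 48.6 at day 3, 20.2 and 20.2 at day 6, 71.7 and 59.7 at day 9, and 139 and 140 FPKM at day 12. In FPKM as deposited, its level on day 6 was back near the control values. Its mean on day 12 was 7.52-fold that of the control. Ranks 7 to 10 reached day 12 means of 7.49, 80.9, 8.23 and 34.7 FPKM, which are 4.02, 2.59, 5.53 and 3.50 times their control means. Their day 9 libraries were far apart in 3 of the 4, at 0.916 and 4.73 FPKM for rank 7, 29.4 and 50.2 FPKM for rank 8 and 8.33 and 32.4 FPKM for rank 10. For rank 10, day 9 library 2 was close to its day 12 libraries, at 35.5 and 33.9 FPKM, and library 1 was among the control and day 0 values.

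The most abundant of the 150 contigs on day 12 was TRINITY_DN12111_c0_g1_i7_4, of rank 18 by gain. It had 80.9 and 81.8 FPKM in the control, 96.2 and 87.7 at day 0, 56.9 and 75.8 at day 3, 65.7 and 66.0 at day 6, 119 and 173 at day 9, and 329 and 195 FPKM at day 12. Both day 12 libraries were above all others, but library 1 stood well above library 2, so the day 12 mean was 262 ± 94.9 FPKM (SD, n = 2) against 81.3 ± 0.635 FPKM in the control, 3.22-fold. The second most abundant contig on day 12, of rank 132 by gain, had a higher mean at each sampling from day 0, with 104 and 102 FPKM in the control, 96.5 and 107 at day 0, 108 and 128 at day 3, 138 and 148 at day 6, 158 and 185 at day 9, and 195 and 198 FPKM at day 12. The third, of rank 131, had 109 and 108 FPKM in the control, 92.2 and 98.6 at day 0, 80.4 and 89.8 at day 3, 97.7 and 108 at day 6, 109 and 137 at day 9, and 142 and 140 FPKM at day 12. In both, day 9 library 2 was nearly as high as day 12. The 5 most abundant contigs made up 23.0% and 22.5% of the summed FPKM of the 150 in the day 12 libraries.

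In FPKM as deposited, some of the late risers first fell. Rescaling, described below, raised the step from day 0 to day 3 by a median of 0.41 over all tested contigs. The size of these falls thus depends on the scaling. The largest fall from day 0 to day 3 among the 150 was that of TRINITY_DN15716_c0_g1_i1_2, -0.997 on the log2(FPKM + 1) scale, just inside the limit that the rule sets. It had 10.4 and 9.90 FPKM in the control, 11.9 and 11.3 at day 0, 5.19 and 5.45 at day 3, 4.76 and 5.73 at day 6, 8.67 and 11.9 at day 9, and 15.6 and 15.3 FPKM at day 12. The low level held over days 3 and 6, both clear of the control and day 0 values, day 9 overlapped with these, and day 12 lay above them. The next largest fall was that of TRINITY_DN1048_c0_g1_i4_4, which is also the last of the 150 by gain. It had 3.76 and 3.71 FPKM in the control, 6.28 and 8.11 at day 0, 2.90 and 3.28 at day 3, 7.29 and 8.54 at day 6, 7.66 and 5.75 at day 9, and 8.28 and 9.84 FPKM at day 12. Its day 12 libraries overlapped with day 6, so these groups did not separate.

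**Figure D3:**
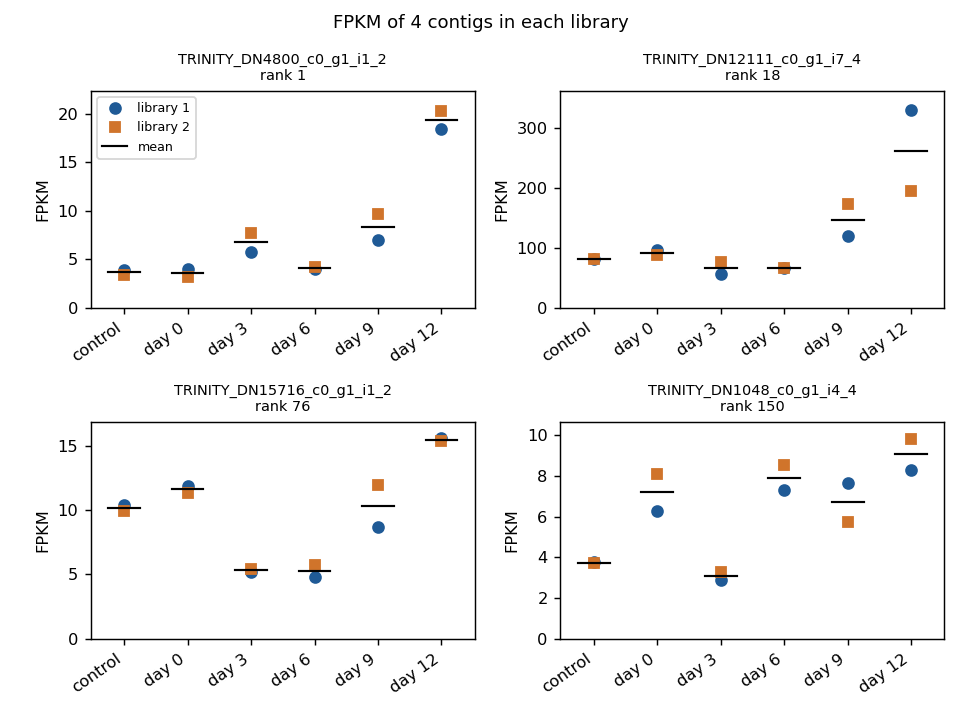
FPKM (vertical axes, from 0) of 4 contigs in each group (horizontal axes): circles are library 1, squares library 2 and lines the mean of both. TRINITY_DN4800_c0_g1_i1_2 is alone at 18.4 and 20.3 FPKM at day 12, TRINITY_DN12111_c0_g1_i7_4 has 329 and 195 FPKM there, TRINITY_DN15716_c0_g1_i1_2 is lowest on days 3 and 6, and TRINITY_DN1048_c0_g1_i4_4 overlaps between days 6 and 12.

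By their early course the 150 contigs fell into 3 classes. The mean of 82 contigs moved by no more than 0.5 on the log2(FPKM + 1) scale from day 0 to day 3, and their group means had medians of 5.25 FPKM in the control, 5.90 at day 3, 5.60 at day 6, 7.53 at day 9 and 12.1 on day 12. Another 40 fell by more than 0.5, and their medians went from 4.37 FPKM on day 0 through 2.31 at day 3, 3.11 at day 6 and 4.77 on day 9 to 7.54 FPKM at day 12. The last 28 rose by more than 0.5, with medians of 6.74 FPKM at day 0, 12.0 at day 3, 6.85 at day 6, 11.0 at day 9 and 18.9 on day 12. In that class the level of day 3 was lost by day 6 and nearly regained by day 9. The median gain was 0.39, 0.36 and 0.47 in the 3 classes. After each library was divided by its median ratio to the other libraries, the median step from day 0 to day 3 over the 150 moved from -0.16 to 0.32, and over all tested contigs from -0.22 to 0.13. The median shift of a tested contig on rescaling was 0.41 in this step, -0.20 from day 3 to day 6 and 0.30 from control to day 12, but -0.03 and 0.05 in the 2 late steps, whose medians over the 150 became 0.39 and 0.57. The direction of the early course, and so these 3 classes, depended on the scaling.

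The group that came second to day 12 was day 9 for 92 contigs, day 0 for 19, the control for 17, day 3 for 17 and day 6 for 5. The 17 contigs with day 3 as second had medians of 9.81 FPKM in the control, 14.6 at day 3, 8.13 at day 6, 10.9 at day 9 and 17.6 on day 12. In the 17 with the control as second, the medians were 4.08 FPKM in the control, 1.73 at day 6 and 5.65 on day 12. In FPKM as deposited, day 12 was for those contigs a return to above the starting level, with a median gain of 0.36. Rescaling raised the step from control to day 12 by a median of 0.30 over all tested contigs. The grouping by second group was not repeated on rescaled libraries. The 92 with day 9 as second went from 6.22 FPKM in the control through 6.90 at day 6 and 11.9 on day 9 to 18.0 on day 12.

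Gains were larger in low contigs on this scale. Split by the mean of the 4 control and day 0 libraries, 74 contigs lay at 1 to under 5 FPKM with a median gain of 0.46, 53 at 5 to under 20 FPKM with 0.35 and 23 at 20 FPKM or more with 0.25. The FPKM of these classes had medians of 2.31, 9.81 and 34.0 in the control and 5.22, 19.5 and 72.8 on day 12. The mean of the control and day 0 libraries ranged from 1.36 to 102 FPKM over the 150.

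Calls were made with limma on all tested contigs, with a Benjamini-Hochberg adjusted p under 0.05, and all 150 contigs were among those tested. Day 12 was called higher than the control for 112 of the 150 (33.4% of all tested contigs were) and higher than day 6 for 113 (17% were). The latter number fell to 68 when day 12 library 1 was left out and to 71 when day 6 library 1 was. Day 9 was called higher than day 6 for 31 (5.05% were) and lower for 0 (1.5% were). In that contrast 75 of the 150 had an unadjusted limma p under 0.05, against 4333 of all 17653 tested contigs in either direction. Day 12 was called higher than day 9 for 30 (2.84% were). There 90 of the 150 had an unadjusted limma p under 0.05, against 4054 of all tested contigs in either direction. The rule used these means, so nothing is read from the shares. The last step missed the threshold in 120 of the 150. Called contigs had steps from day 9 to day 12 of at least 0.47, while a step of 1.83 was not called, in a contig whose day 12 libraries held 6.89 and 2.44 FPKM. Both late steps were called in 19 contigs, only the first in 12, only the second in 11 and neither in 108. This overlap was not counted over all tested contigs, and nothing is read from it.

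Over all tested contigs, calls of the 2 late steps and of day 12 above day 6 rose and fell with the same libraries as those of the 150. The dependence on single libraries is thus no trait of the 150. The number of 30 for the last step rested on single libraries. It was 61 without day 9 library 2 and 13 without day 9 library 1. It was 2 without day 12 library 1 and 0 without day 12 library 2, where 78 contigs still had an unadjusted limma p under 0.05. Libraries of other groups enter through the shared spread, and the number was 15 when control library 1 or 2 was left out and 18 when either one of day 6 was. For the step from day 6 to day 9, the number of 31 became 70 when day 9 library 1 was left out and 12 when its partner was. Leaving out library 1 of day 6 gave 9, library 2 of day 6 gave 7, and either control library gave 16.

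Up to day 6 calls went both ways. Over all tested contigs, leaving out a control or day 0 library also lowered the calls of day 0 against the control. Day 0 was called higher than the control for 15 of the 150 (8.15% of all tested contigs were) and lower for 7 (10.6% were). These calls depended on single libraries, with 2 higher and 0 lower without control library 1, where 19 and 5 had an unadjusted limma p under 0.05. Leaving out control library 2 gave 4 and 1. Of the day 0 pair, leaving out library 1 gave 7 and 1, and library 2 gave 10 and 2. The number lower was also 3 when any one library of day 6 or day 12 was left out and 14 when either one of day 9 was. Day 3 was called higher than day 0 for 26 (22.5% were) and lower for 35 (41.1% were), and the latter number was 21 without day 0 library 1. With rescaled libraries 64 were called higher and 8 lower, so that the balance reversed. It also reversed over all contigs tested there, with 5783 higher and 5477 lower of 17463. Day 6 was called higher than day 3 for 22 (31.2% were) and lower for 27 (14.4% were). Leaving out day 6 library 1 lowered the latter number to 15, day 6 library 2 to 16, and day 3 library 2 to 17. With rescaled libraries 16 were called higher and 40 lower, against 4444 and 3840 of the 17463 contigs tested there. The rule limits the step from control to day 0 on both sides, the day 3 mean against day 0 from below and the day 6 mean against day 0 from above, and sets no limit on the step from day 3 to day 6.

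The 2 libraries of a group were not compared by the rule, and their differences leaned to one library in most groups. Day 9 library 2 was above library 1 in 113 of the 150, with a median difference of 0.34 on the log2(FPKM + 1) scale, while this held for 62.3% of the other eligible contigs (median 0.11) and 56.1% of all tested contigs (median 0.07). Day 3 library 2 was above library 1 in 110 of the 150 (73.3%, median 0.13), against 38.3% of the other eligible contigs and 45.7% of all tested contigs. In the control, library 1 was above library 2 in 108 of the 150, and library 2 was the higher in 28.0%, against 52.2% of the other eligible contigs and 45.1% of all tested contigs. On day 12 the median difference was -0.03, and library 1 was over 2-fold above library 2, on the scale of FPKM + 1, in 9 contigs and the reverse in 0. The same counts were 36 and 34 of the 4045 other eligible contigs, and 363 and 168 of all 17653 tested contigs. The rule ranks by the day 12 mean, so a contig can enter the list through 1 high day 12 library. With 1 pair per day these differences have no test.

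In level, day 9 library 2 was closer to day 12 than its partner for most of these contigs. The median distance of the day 12 mean above day 9 library 1 was 0.70 and above day 9 library 2 it was 0.36. Day 9 library 2 reached the lower of the 2 day 12 libraries in 27 contigs and library 1 did so in 5. Over all tested contigs, the Pearson correlation of log2(FPKM + 1) with the day 12 libraries was 0.964 and 0.961 for day 9 library 2, and 0.933 and 0.943 for day 9 library 1. Over the 150 alone the order depended on the day 12 library, with 0.968 and 0.930 for day 9 library 2 and 0.928 and 0.960 for library 1. These r are across contigs, and contigs are no replicates.

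The differences within pairs were also compared between days. In 61 of the 150 contigs (40.7%), day 3 library 2, day 9 library 2 and day 12 library 1 were each the higher of their pair, and the mirror image occurred in 11. The first pattern was present in 17.8% of all tested contigs and its mirror image in 15.9%. Among the 150, the leans of single days given above already favour the first pattern over its mirror image. These shares alone therefore do not show that the days went together. Over the 150 contigs the difference of library 2 minus library 1 on day 9 had a Pearson r of -0.53 with that on day 12 and of 0.45 with that on day 3. Over all tested contigs these were -0.19 and 0.25. The 150 had median absolute differences within pairs of 0.36 on day 9 and 0.15 on day 12. Contigs of ranks 59 and 63, given below, lay far outside these. Without them r was not computed, so -0.53 may rest on few contigs. The points share the 6 libraries of days 3, 9 and 12, and the values are a description across contigs.

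A few contigs showed this pattern in full, chosen here after their values were seen. Of the 9 contigs with day 12 library 1 over 2-fold above library 2, 7 had day 9 library 2 above library 1, 7 had day 3 library 2 above library 1, and 6 had both. The contig of rank 59 had 1.56 and 1.34 FPKM in the control, 1.52 and 1.02 at day 0, 1.78 and 9.22 at day 3, 0.806 and 0.579 at day 6, 2.06 and 39.0 at day 9, and 49.9 and 3.57 FPKM at day 12. The contig of rank 63 had 4.26 and 3.43 FPKM in the control, 5.83 and 6.97 at day 0, 4.70 and 10.4 at day 3, 1.27 and 1.00 at day 6, 4.36 and 40.6 at day 9, and 56.9 and 6.14 FPKM at day 12. In each, a high and a low library stood side by side on days 9 and 12, with 18.9-fold and 9.32-fold between the day 9 libraries and 14.0-fold and 9.26-fold between the day 12 libraries. For such contigs the mean of a pair is a poor summary of either library.

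**Figure D4:**
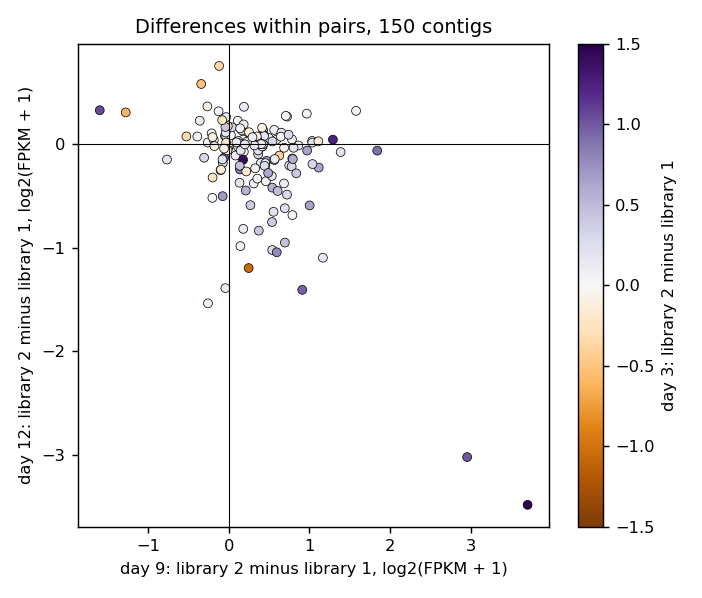
Difference of library 2 minus library 1 on day 9 (horizontal axis) and on day 12 (vertical axis) for the 150 contigs, on the log2(FPKM + 1) scale; colour is the same difference on day 3 and ends at -1.5 and 1.5. The cloud lies to the right of 0 and reaches down on the right, with r = -0.53, and the 2 points at the lower right are the contigs of ranks 59 and 63. Without these points r was not computed.

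The same rule was also applied to 1 library of each group, so that the gain could be read in the libraries that the choice had not used. Of the 150 contigs chosen in library 1 of each group, whose median gain there was 0.70, the median gain in the libraries 2 was 0.01, and it was above 0 in 75. Of the 150 chosen in library 2, whose median gain there was 0.38, the median gain in the libraries 1 was 0.25, and it was above 0 in 104. Other contigs eligible in the choosing libraries had medians of -0.75 and -0.87, with gains above 0 in 5.58% and 7.34%. The median of the contigs chosen in 1 set of libraries lay above that of the other eligible contigs in the other set. Both libraries of a group may come from 1 culture, so this is a description and no independent repeat. In libraries 2 that median was close to 0, so that day 12 stood level there with the highest earlier library. For the chosen contigs, the median step from day 9 to day 12 was 0.08 in libraries 2 and 0.53 in libraries 1. The 2 lists shared 40 contigs, 26.7% of each, and each shared 77 with the 150 described here. The labels do not say that a number ties libraries of different groups. Over all tested contigs the differences within pairs correlated among days 3, 6 and 9, with r of 0.41 for days 3 and 6, 0.25 for days 3 and 9 and 0.28 for days 6 and 9, and not in every other pair of groups.

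**Figure D5:**
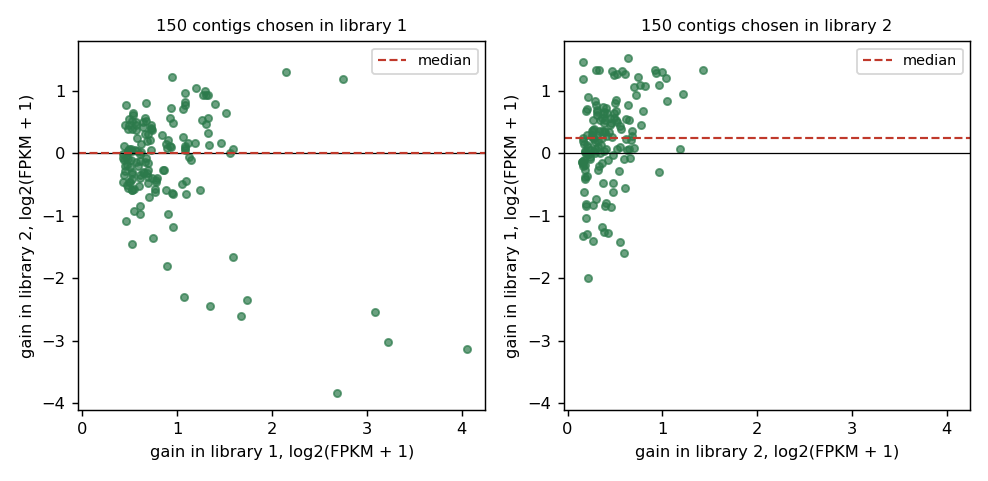
Day 12 gain in the libraries used to choose (horizontal axes) and in the libraries not used (vertical axes), log2(FPKM + 1) scale, for 150 contigs chosen in library 1 of each group (left) and 150 chosen in library 2 (right); dashed lines are medians of the vertical values. The median is 0.01 on the left and 0.25 on the right, and 75 and 104 points lie above 0.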

How the data were processed

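The authors deposited 1 table of FPKM values with 12 columns, all of them mapped to a library by title; the file name gives the unit, while no source used here gives the abundance program, assembler settings, filters or annotation. Row names have the form that the Trinity assembler writes, with an appended number from 1 to 4 of unstated meaning. FPKM is a share of a library, so abundant contigs shift all others. From these values, log2(FPKM + 1) was computed, the selection rule applied, and the 17653 of 30814 contigs that averaged 1 FPKM or more fitted with limma 3.58.1 in R 4.3.3 (group means of all 12 libraries, eBayes with trend, 6 residual degrees of freedom, Benjamini-Hochberg over all tested contigs). The fit was also run on simulated data, with the same spread in all groups and with independent libraries. That run cannot vouch for calls between days of unequal spread. Summaries used Python 3.11.15.

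Where libraries were rescaled, each was divided by its median ratio to the geometric mean library. The members, classes and comparisons were chosen with earlier results of these data known. IDs are printed for 2 contigs that rose (largest gain, highest day 12 FPKM) and the 2 with the lowest day 3 minus day 0. Further contigs are given by rank. P-values measure only the spread between the 2 libraries of a group, pooled over all groups and moderated across contigs. This spread may be technical. Over all tested contigs the median absolute difference within pairs was 0.29 on day 9 and 0.14 on days 6 and 12, while the fit gives all groups 1 spread.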

Additional observations from a re-analysis of the deposited data

How the results depend on the processing

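The list itself depended on the processing. Applied to rescaled libraries, the rule kept 79 of the 150 contigs. Of the 71 lost, 58 were no longer eligible, and 39 had day 6 at least 0.5 above day 0. Applied to library 1 or to library 2 of each group alone, it kept 77 each time, and without 1 library in turn 101 to 142. The median gain of the 150 was 0.27 to 0.48 without 1 library in turn, with the lowest value without day 9 library 1. The gain in libraries not used was 0.01 or, with the roles exchanged, 0.25. Calls of day 12 above day 9 went from 30 to 19 with a pseudocount of 0.1 and to 0 in a limma fit of those 4 libraries alone, where 55 had an unadjusted p under 0.05, and ranged from 0 to 61 without 1 library in turn. Calls of day 9 above day 6 were 2 in a fit of their 4 libraries and 7 to 70 without 1 library in turn. Calls of day 3 below day 0 went from 35 to 8 with rescaled libraries and were 21 to 39 without 1 library in turn. The 4 calls of day 12 above day 9 among other contigs of the same Trinity clusters were 2 with a pseudocount of 0.1, 8 without a low-value filter, 0 in the fit of 4 libraries alone (22 at an unadjusted limma p under 0.05), and 0 to 18 without 1 library in turn. The 0 came without day 12 library 1 or 2, where 14 and 19 had such a p. Over all tested contigs, calls of day 12 above day 9 went from 502 to 178 with a pseudocount of 0.1. In the fit of 4 libraries alone they were 1 of 20029. Calls of day 3 below day 0 over all tested contigs went from 7257 to 5477 with rescaled libraries. The causes were not tested. With the replicate block 20 contigs were called for day 12 above day 9, 24 for day 9 above day 6 and 113 for day 12 above the control, so no count moved by over 1.5 times. Same-numbered libraries did not deviate together in all groups (r of the library differences between -0.19 and 0.41, under 0 in 9 of 15 pairs of groups but 0.25 to 0.41 among days 3, 6 and 9), so the numbers were not taken to pair all groups. The 112 calls of day 12 above the control stayed within 1.5 times in the 18 alternatives tried, from 87 to 115 without 1 library in turn. In alternatives chosen after seeing the data, rescaled libraries gave 107 contigs with both day 12 libraries above all others, and 107 with day 9 library 2 above library 1. Leaving out a library can only keep or raise the first count and says nothing of its stability. Without reads, no interval for counting error can be given.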

Other observations

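The appended number of the row names was counted in the 150 contigs and in the whole table. Number 1 was carried by 18 (12.0%), number 2 by 53 (35.3%), number 3 by 26 (17.3%) and number 4 by 53 (35.3%). Among the 4045 other eligible contigs the shares were 29.9%, 24.1%, 23.6% and 22.5%, and over all 30814 contigs 16.9%, 26.9%, 21.8% and 34.4%. No source used here gives the meaning of the number, and the difference was not tested.

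Contigs that share the Trinity cluster of a late riser were looked at apart. Over all pairs of tested contigs in a cluster, the median Pearson r of log2(FPKM + 1) across the 12 libraries was 0.23 for 3155 pairs with the same appended number and 0.02 for 7262 pairs with different numbers, as a description. The same cluster and number as one of the 150 was carried by 55 other contigs, and 49 of these were tested. Their median step from day 9 to day 12 was 0.09 on the log2(FPKM + 1) scale, with 26 of 49 above 0. By limma adjusted p under 0.05, 1 was higher and 1 lower on day 12 than on day 9. Of 165 contigs with the same cluster and another number, 119 were tested, their median step was 0.04, and 3 were higher and 2 lower by the same limma threshold. These counts are 2.04% and 2.52% higher, near the 2.84% higher and 1.94% lower of all tested contigs, of which 51.2% had a step above 0. No source used here says how fragments were divided between such contigs. Of the 150, 119 had no other contig of their cluster and number, and 4 shared these with another of the 150.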
